A study of Mus musculus with 7 samples.

Results

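The 9 mitochondrial tRNAs described here are those that lie beyond mt-Nd2 on the plus strand of the mouse mitochondrial genome: mt-Tw, mt-Td, mt-Tk, mt-Tg, mt-Tr, mt-Th, mt-Ts2, mt-Tl2 and mt-Tt. They were chosen by gene symbol and place in the genome, with earlier results of these data known, and make up 9 of the 22 mitochondrial tRNAs and 9 of the 13218 genes with RT stop counts. The study mapped RNA structure across the transcriptome of E14 cells, a line of mouse embryonic stem cells grown on gelatin with LIF, by CIRS-seq. In this method lysates were freed of protein with Proteinase K and treated with dimethyl sulfate (DMS, doses of 50 to 200 mM) or with the carbodiimide CMCT (doses of 10 to 50 mM), and the positions at which reverse transcriptase (RT) stopped were counted along each transcript. The not treated group (NT) had neither reagent, and each of the 3 groups had 2 replicates. The study calls them biological replicates, and the labels do not state whether they were separate cultures. A library of ribosomal RNA depleted RNA from the same cells was sequenced as RNA-seq, once.

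Mitochondrial tRNAs bring amino acids to the ribosomes of the mitochondrion. They are cut out of long polycistronic transcripts, in which they stand between the mRNAs and rRNAs like punctuation, and most fold into a cloverleaf of an acceptor stem, a D arm, an anticodon arm and a T arm. Several of their bases are methylated after transcription. Methylation of the Watson-Crick face of the purine at position 9, between the acceptor stem and the D arm, is a known block to RT. DMS methylates unpaired A and C, and CMCT modifies unpaired U and, less readily, G, so a stop that appears after treatment marks a base the reagent could reach. A stop that is already there in NT is called natural.

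The sequences below, read from the mm9 mitochondrial chromosome, are printed whole because the stops are described base by base. T stands for the U of the RNA, and capitals mark the D loop and then the anticodon loop, whose 3 central bases are the anticodon. All 9 are on the plus strand.
mt-Tw: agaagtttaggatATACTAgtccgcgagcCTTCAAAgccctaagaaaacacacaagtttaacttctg
mt-Td: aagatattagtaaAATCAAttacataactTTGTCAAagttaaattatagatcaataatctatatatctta
mt-Tk: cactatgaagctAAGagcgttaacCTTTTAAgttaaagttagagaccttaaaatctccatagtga
mt-Tg: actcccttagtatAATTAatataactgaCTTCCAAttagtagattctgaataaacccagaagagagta
mt-Tr: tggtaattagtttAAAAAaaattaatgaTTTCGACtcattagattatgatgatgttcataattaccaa
mt-Th: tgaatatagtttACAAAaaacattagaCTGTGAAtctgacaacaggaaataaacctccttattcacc
mt-Ts2: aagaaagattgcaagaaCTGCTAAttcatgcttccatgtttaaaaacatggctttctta
mt-Tl2: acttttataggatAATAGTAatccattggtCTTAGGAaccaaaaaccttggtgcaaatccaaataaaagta
mt-Tt: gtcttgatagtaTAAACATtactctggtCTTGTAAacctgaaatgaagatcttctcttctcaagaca

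The tRNA for tryptophan, mt-Tw (chrM:4950-5016, anticodon UCA), follows mt-Nd2. The tRNA for aspartate, mt-Td (chrM:6942-7011, anticodon GUC), precedes mt-Co2, and the tRNA for lysine, mt-Tk (chrM:7700-7764, anticodon UUU), stands between mt-Co2 and mt-Atp8. On either side of mt-Nd3 lie the tRNA for glycine, mt-Tg (chrM:9391-9458, anticodon UCC), and the tRNA for arginine, mt-Tr (chrM:9808-9875, anticodon UCG). Between mt-Nd4 and mt-Nd5 lie 3 members in a row, mt-Th for histidine (chrM:11546-11612, anticodon GUG), mt-Ts2 for serine (chrM:11613-11671, anticodon GCU) and mt-Tl2 for leucine (chrM:11671-11741, anticodon UAG). The tRNA for threonine, mt-Tt (chrM:15289-15355, anticodon UGU), follows mt-Cytb. The fold computed from the sequences placed no D arm in mt-Ts2, the tRNA that is known to lack one in mammals. The annotation of mt-Th starts 1 base late, after a G that pairs in the acceptor stem, so its base 8 is position 9 of the tRNA. Positions are counted from the annotated 5′ end unless stated.

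Some features of the libraries bear on every result for these tRNAs. Summed over transcripts, so that a base shared by isoforms counts in each, the 6 libraries held 181944556 to 338201940 counts of RT stops. With each genomic position counted once per gene, the stops assigned to genes numbered 140186204 to 247369982. Of these the 9 tRNAs had 0.00828% to 0.0188%. The last 25 bases of each transcript carried no counts, so the T arm and the 3′ side of the acceptor stem were not measured and 34 to 46 bases of each tRNA were. Replicate counts were closer than counting noise allows. Of the 106 member positions with at least 50 stops in the 2 CMCT libraries together, 46 (43.4%) differed by at most 1 stop, where independent counts of equal depth would give 9.30%. The share was 32.4% in NT and 24.7% in DMS against 10.6% and 8.79% for independent counts, and over all tested positions of the series it was 21.6% to 24.4%. The 2 CMCT libraries differed 1.76-fold in the stops assigned to genes, but only 1.13-fold in the sum over the 9 tRNAs and 2.13-fold over the 11 neighbouring mRNAs. The cause was not tested, and p-values below treat the replicates as independent, which makes them too small where counts are tied in this way. Other positions differed widely between replicates, with 20 of 73 member positions in DMS more than 2-fold apart, beside 92449 of 362610 over the series.

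**Figure D1:**
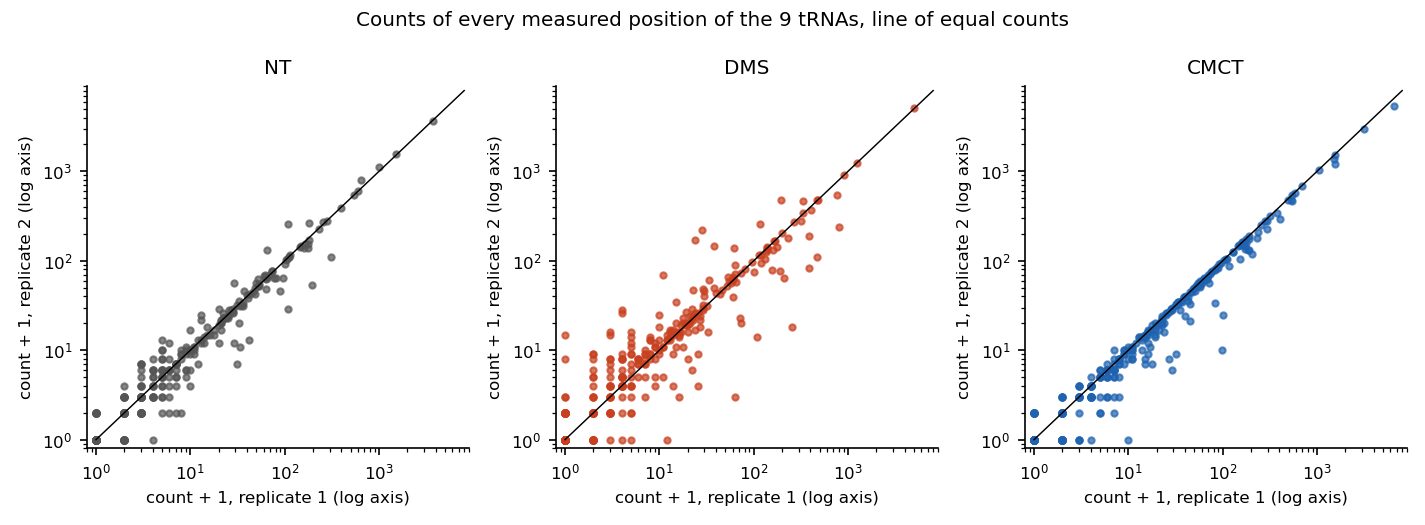
Counts of every measured position of the 9 tRNAs in replicate 1 (x axis, count + 1, log scale) and replicate 2 (y axis, count + 1, log scale), 1 panel per treatment, with the line of equal counts. Many points lie on or close to the line although the libraries differ in depth, and DMS has the most points far from it.

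The sequences of these tRNAs also recur in the genome. The 25 bases after a position were found once in mm9 for none of the measured positions of mt-Tw, mt-Td, mt-Tk, mt-Tg and mt-Th, each of which has copies of these stretches elsewhere, at up to 3 places in all. The share of positions found once was 27.9% in mt-Tr, 52.4% in mt-Tt, 78.3% in mt-Tl2 and 85.3% in mt-Ts2. Such positions held 14.2% of the stops of mt-Tr, 84.5% of those of mt-Tt, 36.9% of those of mt-Tl2 and 52.2% of those of mt-Ts2. Reads of the tRNA and of such copies cannot be told apart in these counts. As to the label of the cells, 9 stem cell markers, among them Pou5f1 and Zfp42, stood at 3.735 to 220.7 RPKM (reads scaled to length and library size) in RNA-seq, the 5 fibroblast markers at 0.004005 to 0.2352 and 7 markers of differentiated cells at 0 to 3.047.

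RT stops per measured base spanned more than 2 orders of magnitude among the 9 tRNAs in NT. The tRNA for glycine, mt-Tg, was the most stopped, with 131 and 119 stops per base in the 2 NT libraries, and mt-Ts2 the least, with 0.794 and 0.529. Between them came mt-Tw with 88.4 and 89.5, mt-Th with 67.8 and 69.8, mt-Tk with 27.4 and 30.2 and mt-Tt with 19.3 and 22.1. Below these, the values of mt-Tl2 (11.5 and 7.37) and mt-Td (5.22 and 8.42) overlapped, so that the order of this pair is not given by the data, whereas mt-Tr (2.72 and 2.88) lay below both. No other pair of neighbours in this order overlapped between the NT libraries.

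RNA-seq ordered them differently. Its 475 reads on the 9 tRNAs, assigned by their midpoint, gave 143 reads to mt-Th (exact 95% Poisson interval 121 to 168, counting error only), 74 to mt-Ts2, 71 to mt-Tl2, 59 to mt-Tg and 52 to mt-Tt. Only 25, 24, 23 and 4 fell on mt-Tk, mt-Tw, mt-Tr and mt-Td, the last with an interval of 1.09 to 10.2. In RPKM the levels ran from 1.79 for mt-Td to 67.0 for mt-Th, against 60.15 to 2546 for the 11 neighbouring mRNAs. The serine tRNA mt-Ts2, the lowest of the 9 in RT stops per base, stood at 39.4 RPKM, with a read count whose interval (58.1 to 92.9) overlapped that of mt-Tl2 (55.5 to 89.6), and mt-Tw, second in RT stops, stood at 11.2. The RNA-seq alignments are 50 bases long, nearly the length of a tRNA, and come from a single library without replicates. Alignments to both strands were counted, and the plus strand held from 3 of 23 in mt-Tr to 49 of 59 in mt-Tg.

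In the comparison of DMS with NT, 4 of the 9 tRNAs fell, 1 rose and 4 did not pass the test. The count of mt-Tw was 3712 and 3760 in NT, 1871 and 1862 in DMS, and 5205 and 4852 in CMCT. That of mt-Th was 2849 and 2933 in NT, 1324 and 1706 in DMS, and 7018 and 6561 in CMCT, and that of mt-Tt 810 and 928, 221 and 564, and 1374 and 1164. The aspartate tRNA mt-Td had 235 and 379 stops in NT, 144 and 220 in DMS, and 653 and 526 in CMCT. In each of these 4 tRNAs both DMS libraries lay below both NT libraries, and so they did in CPM (counts scaled to TMM library size), as in 32.0% of all genes. By edgeR's quasi-likelihood test over all genes, with TMM scaling and Benjamini-Hochberg adjustment, the 4 fell by 1.48 (mt-Tw, SE 0.30, adjusted p = 0.0033), 1.41 (mt-Th, SE 0.32, adjusted p = 0.0058), 1.62 (mt-Tt, SE 0.40, adjusted p = 0.0099) and 1.27 (mt-Td, SE 0.38, adjusted p = 0.027) on the log2 scale.

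Only mt-Ts2 rose in DMS among the 9, and it was the least stopped of them. Its counts were 27 and 18 in NT, 167 and 176 in DMS, and 77 and 43 in CMCT, so that all 3 groups were apart, and its log2 fold change in DMS was 2.49 (SE 0.35, edgeR adjusted p = 0.00055). The glycine tRNA mt-Tg had 5639 and 5133 stops in NT, 12884 and 11741 in DMS, and 11184 and 9689 in CMCT. Its DMS difference of 0.73 (SE 0.32) did not pass the test in edgeR (adjusted p = 0.11) but did in DESeq2, and without its most counted position it was 1.61 (adjusted p = 0.0024). The lysine tRNA mt-Tk (1094 and 1209 in NT, 1769 and 1201 in DMS, 2550 and 2098 in CMCT), mt-Tr (117 and 124, 147 and 116, 262 and 243) and mt-Tl2 (531 and 339, 420 and 155, 1294 and 1120) did not pass in DMS. For mt-Tl2 (−1.04, adjusted p = 0.063) this depended on the test: in CPM both DMS libraries (2.16 and 0.83) lay below both NT libraries (3.32 and 2.82), and it passed in DESeq2, in a likelihood ratio test and without its most counted position (−1.55). DESeq2 called 5 of the 9 lower and 2 higher. In all, 5 of the 9 passed in DMS, against a background of 26.4% of the 13216 genes tested. The median log2 fold change of the 9 was −1.04, beside 0.01 over all genes.

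**Figure D2:**
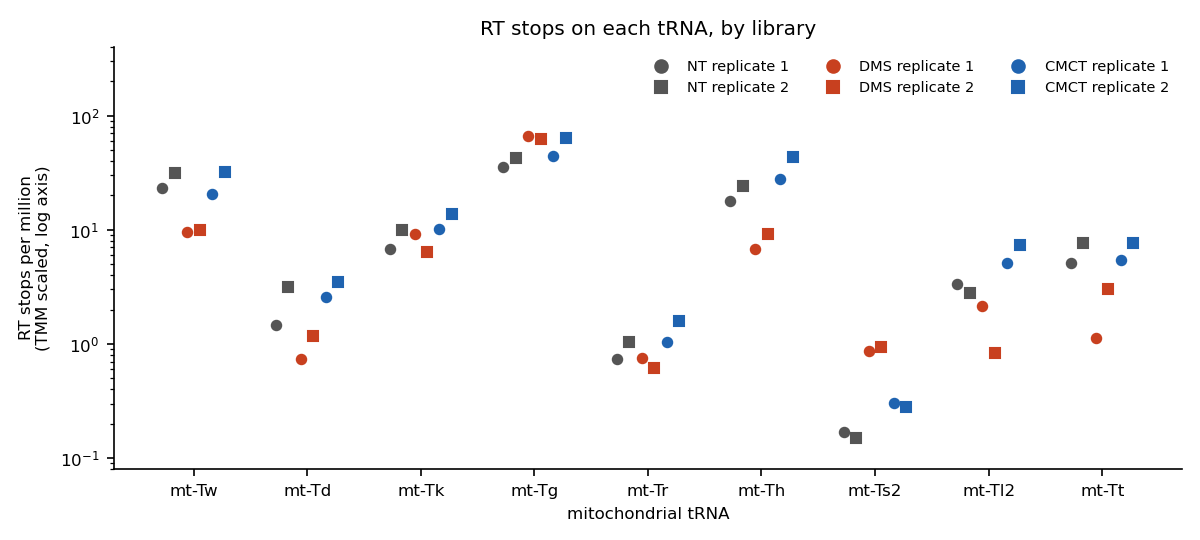
RT stops of each tRNA in CPM (y axis, TMM scaled, log scale) in the 6 libraries, with circles for replicate 1 and squares for replicate 2. In mt-Tw, mt-Th, mt-Td and mt-Tt the DMS points lie lowest, whereas in mt-Ts2 they lie highest.

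These calls rested on single libraries to a varying degree. Without NT replicate 2 the adjusted p of mt-Tw rose to 0.054, and without NT replicate 2 or DMS replicate 1 mt-Td, mt-Th and mt-Tt were no longer past the threshold, with adjusted p of up to 0.37, 0.086 and 0.17. The log2 fold change of mt-Td was −0.62 without NT replicate 2 and −1.74 without DMS replicate 2, that of mt-Tt −1.10 without DMS replicate 1 and −2.61 without DMS replicate 2, and that of mt-Tl2 −0.67 without DMS replicate 2 and −1.89 without DMS replicate 1. With RLE scaling mt-Td (−1.29) did not pass, and 3 of the 9 fell, nor did it without its most counted position (−1.06). The call of mt-Ts2 held whichever library was left out, with a highest adjusted p of 0.034. Of the other 13 mitochondrial tRNAs, 6 fell and none rose in DMS, with a median of −1.02. Of the 11 neighbouring mRNAs, cut from the same precursor, 3 rose and none fell, with a median of 0.81 and all 11 values above 0, and both rRNAs rose.

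In CMCT against NT no member passed in edgeR, where 29.0% of all genes did. The lowest adjusted p was 0.062 (mt-Tl2, log2 fold change 1.02, SE 0.38), 3 of the 9 had an unadjusted p under 0.05, and DESeq2 also called none, whereas a likelihood ratio test with trended dispersions called 1. In edgeR 3 were called higher when each gene's most counted position was left out, and 2 without CMCT replicate 1. With a replicate block edgeR called 2 higher, mt-Th and mt-Tl2. The differences of the main fit ran from −0.06 (mt-Tw) to 1.02 with a median of 0.50, beside 0.11 over all genes. Between the 2 reagents the tRNAs differed more: 5 were higher in CMCT than in DMS and 1 lower, against a background of 9.25% of genes called. Higher were mt-Th (log2 difference 2.15, SE 0.33, adjusted p = 0.0012), mt-Tl2 (2.06), mt-Tt (1.66), mt-Td (1.66) and mt-Tw (1.42), and mt-Ts2 was lower (−1.61). Of these, mt-Th passed whichever library was left out. The call of mt-Td and of mt-Ts2 was lost without DMS replicate 1, that of mt-Tw without DMS replicate 1 or CMCT replicate 2, that of mt-Tl2 without either NT library, and that of mt-Tt without either NT library or DMS replicate 1. Leaving out 1 library moved mt-Tl2 between 1.49 and 2.90 and mt-Tt between 1.11 and 2.48, the widest ranges among the called tRNAs. With RLE in place of TMM scaling, mt-Tw, mt-Td and mt-Tt were not called, which left 2 tRNAs higher, and DESeq2 did not call mt-Tt.

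Along the tRNAs, the natural stops of NT concentrated at position 9. In 6 of the 9 it was the most stopped base in both NT libraries, an A in each. At this base mt-Tg had 3751 and 3647 stops in the 2 NT libraries, 66.5% and 71.1% of all its stops, and mt-Tw 1524 and 1558, or 41.1% and 41.4%. The other 4 were mt-Tk (643 and 806, or 58.8% and 66.7%), mt-Td (107 and 257, or 45.5% and 67.8%), mt-Th (1011 and 1122, or 35.5% and 38.3%) and mt-Tt (252 and 272, or 31.1% and 29.3%). The replicates of mt-Td were the farthest apart, and those of mt-Tw the nearest.

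The remaining 3 tRNAs had other profiles. In mt-Tl2 the A at position 9 had 76 and 63 stops, and the T at position 16 in the D loop had 194 and 52, so that the T led in NT replicate 1 and in the sum of both, and the A in NT replicate 2. The A at position 9 of mt-Tr had no stop in either NT library and 5 and 6 in DMS and 6 and 2 in CMCT. The T before it, at position 8, had 10 and 9 in NT, 1 and 0 in DMS and 12 and 13 in CMCT, and the leading base was the T at position 22 in the D stem (27 and 25). The first 7 bases of mt-Tr had almost no stops, as described further on. The base at 10 had 2 and 5 in NT, so stops were counted on both sides of position 9. The total of mt-Tr was low, with 117 and 124 stops in NT. In mt-Ts2, which has a T at position 9, no base led in both NT libraries: the first base had 6 and 6 stops, the T at 10 had 7 and 1, and the A at 13 had 2 and 6. Among the other 13 mitochondrial tRNAs, position 9 was the most stopped base in 5 of the 6 with A there and in 5 of the 5 with G, but in neither of the 2 with C. Its share of the NT stops had a median of 56.3% and 55.4% for A and G and 7.06% for C. Beside these stood 41.2% for the 7 members with A other than mt-Tr, 39.1% for all 8 with A, and 11.1% for the T of mt-Ts2.

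After DMS the share of stops at position 9 was lower than in both NT libraries in mt-Tw, mt-Tk, mt-Tg, mt-Th, mt-Ts2, mt-Tl2 and mt-Tt, an order of the 4 libraries that 32.7% of all tested positions of the series had. In mt-Ts2 this base had too few stops to be tested, 3 and 2 in NT and 6 and 6 in DMS. Shares within a tRNA sum to 100%, so a rise elsewhere lowers them. In mt-Tg it went from 66.5% and 71.1% to 38.5% and 43.1%, in mt-Tw from 41.1% and 41.4% to 17.7% and 25.1%, and in mt-Tt from 31.1% and 29.3% to 9.95% and 8.16%. These 3 passed the position test in edgeR, which compares a position's stops relative to the total of its transcript: the share fell by 0.75 (mt-Tg, SE 0.11, adjusted p = 0.018), 0.95 (mt-Tw, adjusted p = 0.037) and 1.75 (mt-Tt, adjusted p = 0.0097) on the log2 scale. The count of mt-Tg at this base rose, from 3751 and 3647 to 4954 and 5058, and scaled to library size its log2 difference was −0.096 and did not pass. The likelihood ratio test called neither mt-Tg nor mt-Tw at this base. With 1 library left out mt-Tw was −1.22 to −0.72 there, and its call was lost whichever was left out. The values of mt-Tk (−0.51, adjusted p = 0.052), mt-Th (−0.79, adjusted p = 0.16) and mt-Td (−0.28, adjusted p = 0.82) did not pass. This depended on the setting: mt-Tk passed at a minimum of 200 counts, at an equal value. The fall of mt-Th was larger scaled to library size (−2.20) and with the transcript total capped at the 90th percentile (−2.33), whereas mt-Td was 0.16 with that cap. Of all positions in the series, 8.47% were called lower in DMS. With CMCT none of these 6 positions passed, and the shares were 29.0% and 28.6% in mt-Tw, 28.5% and 24.7% in mt-Td, 60.5% and 58.0% in mt-Tk, 58.1% and 54.8% in mt-Tg, 45.1% and 45.5% in mt-Th and 27.7% and 29.3% in mt-Tt.

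**Figure D3:**
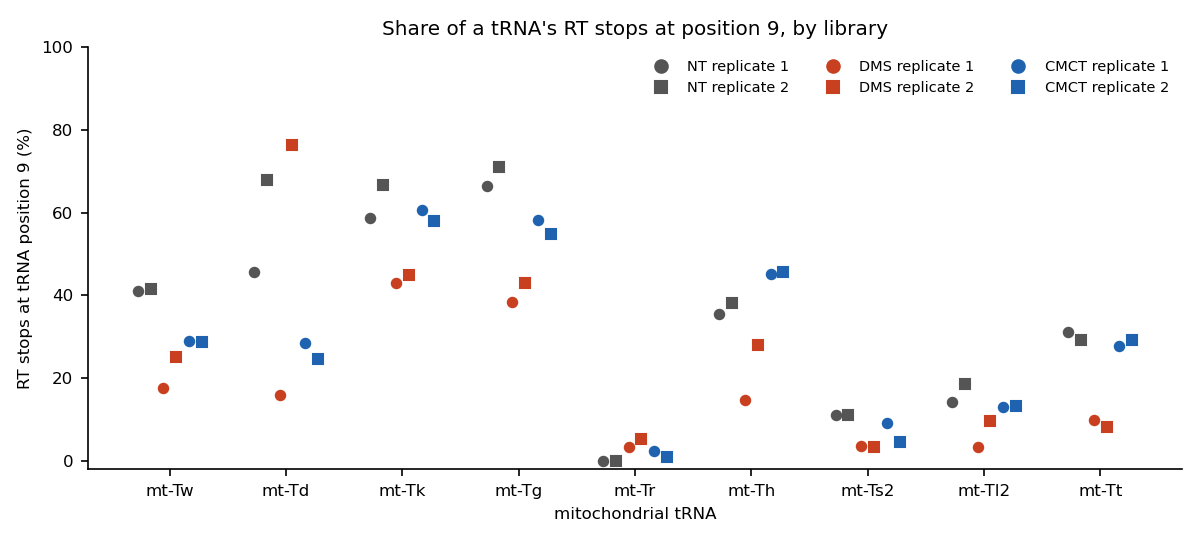
Share of each tRNA's RT stops that fell at tRNA position 9 (y axis, percent) in the 6 libraries, with circles for replicate 1 and squares for replicate 2. NT lies above DMS in mt-Tw, mt-Tk, mt-Tg, mt-Th, mt-Ts2, mt-Tl2 and mt-Tt, the DMS replicates of mt-Td span 16.0% to 76.4%, and mt-Tr has almost no stops there.

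The bases called higher with CMCT all lay in the loops. Of the 377 measured bases of the 9 tRNAs, 138 had at least 60 stops over the 6 libraries and were tested, 49 of them in a D or anticodon loop and 89 elsewhere. With CMCT, 11 of the 49 loop bases rose (22.4%) and 1 fell, and of the 89 other bases none rose and 5 fell, against backgrounds of 5.00% higher and 4.62% lower over the 622562 positions tested in the series. Outside the loops 4 bases were more than 2-fold up without passing, among them the base at 21 of mt-Td, in the D stem, with 24 and 23 stops in NT and 127 and 126 in CMCT (log2 fold change 1.43, adjusted p = 0.18). Scaled to library size in place of the tRNA's total, which asks for a change in count and not in share, CMCT rises numbered 19 in the loops and 11 elsewhere, with no fall. Of the 18 loop bases that were T, 7 rose with CMCT, of the 9 that were C and the 19 that were A 2 each did, and of the 3 that were G none did. With DMS, 14 of the 49 loop bases (28.6%) and 17 of the 89 others (19.1%) rose, against a background of 13.4%. None of the loop bases fell in DMS, and 13 of the others did. Scaled to library size, DMS raised 10 and lowered 8 of the loop bases, and raised 16 and lowered 30 of the others. By base, 9 of 19 A and 2 of 9 C in the loops rose with DMS, beside 2 of 18 T and 1 of 3 G. In the anticodon loop alone, 8 of 20 tested bases rose with DMS and 6 of 20 with CMCT.

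The position test depended on both replicates. Without NT replicate 1, NT replicate 2 or DMS replicate 2, edgeR called none of the 138 positions in DMS (and none in the whole series), with 52, 47 and 67 of the 138 at an unadjusted p under 0.05. Without either NT library it called none of the 138 in CMCT either, with 29 and 36 at an unadjusted p under 0.05, and without CMCT replicate 1 or 2 it called 3 and 2. The sign of each of the 31 rises and 13 falls in DMS, and of the 11 rises and 6 falls in CMCT, was the same in every such fit. A likelihood ratio test with dispersions taken from the trend over all positions, added after the tied counts were seen, called 29 rises and 6 falls in DMS and 11 rises and 3 falls in CMCT. Shared with the quasi-likelihood calls were 23 of the rises and 6 of the falls in DMS, and 9 of the rises and none of the falls in CMCT.

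The tRNA with the most called positions was mt-Tg, with 13 rises and 5 falls among 34 tested positions in DMS and 6 and 4 in CMCT. Scaled to library size, all 13 DMS rises and all 6 CMCT rises passed, and none of the falls did. With the transcript total capped at the 90th percentile, 9 of the 13 DMS rises passed, as did all the falls and all the CMCT rises. Its anticodon loop runs from base 29 to 35 and holds the anticodon at 31 to 33. At the A of position 34, just 3′ of the anticodon, NT had 3 and 3 stops, CMCT 17 and 18, and DMS 900 and 901. The log2 fold change of this base in DMS was 7.01 (SE 0.23, edgeR adjusted p = 0.0066). The neighbouring A at position 35 rose from 1 and 1 to 165 and 166 (6.08, adjusted p = 0.0066), and the C bases at 32 and 33, the last 2 letters of the anticodon, from 19 and 18 to 166 and 166 and from 40 and 37 to 479 and 478. DMS thus raised the 4 bases of the 3′ side of the loop, all A or C.

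CMCT raised the 5′ side of the same loop. The T at position 30 went from 20 and 19 stops in NT to 543 and 543 (log2 fold change 3.85, SE 0.21, edgeR adjusted p = 0.0029) and the T at 31, the first letter of the anticodon, from 8 and 8 to 315 and 315 (4.34, adjusted p = 0.0022), beside 63 and 71 and 15 and 15 in DMS. The C at position 29 rose as well, from 27 and 28 to 157 and 155. In the D loop, bases 14 to 18, the T bases had more stops with CMCT than with DMS, and of the A bases those at 14 and 18 had more with DMS. The T at 17 had 9 and 5 stops in NT, 72 and 19 in DMS and 689 and 679 in CMCT (5.66, adjusted p = 0.025), and the T at 16 had 32 and 19, 189 and 76, and 525 and 477. The A at 18 had 12 and 11, 266 and 274, and 24 and 25, and the A at 14 had 8 and 9, 138 and 132, and 20 and 16. The A at 15 went the other way, with 2 and 3 stops in NT, 18 and 26 in DMS and 66 and 64 in CMCT. It was the only base of this loop that passed with both reagents, at 1.92 in DMS and 3.71 in CMCT. Its DMS value was 1.25 and did not pass where each position was capped at the 90th percentile of its transcript before the total was summed. The A at 23, the single base between the D and anticodon arms, went from 68 and 68 in NT to 1241 and 1246 in DMS (3.00, adjusted p = 0.0066) and to 52 and 53 in CMCT. DMS rises were called at stem positions too. At base 4 the stops went from 109 and 108 to 474 and 473, and at base 5 from 20 and 21 to 95 and 96. At base 21 they went from 27 and 26 to 137 and 137. None of these passed with the capped total. A DMS rise was also called at the T bases at 36 and 37, in the anticodon stem, the second from 1 and 0 to 25 and 25 (4.27, adjusted p = 0.019). With so few stops in NT the size of that rise is not fixed: it was 3.43 without NT replicate 2 and 7.37 without NT replicate 1, and it passed without CMCT replicate 2 but in no fit that left out another library.

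**Figure D4:**
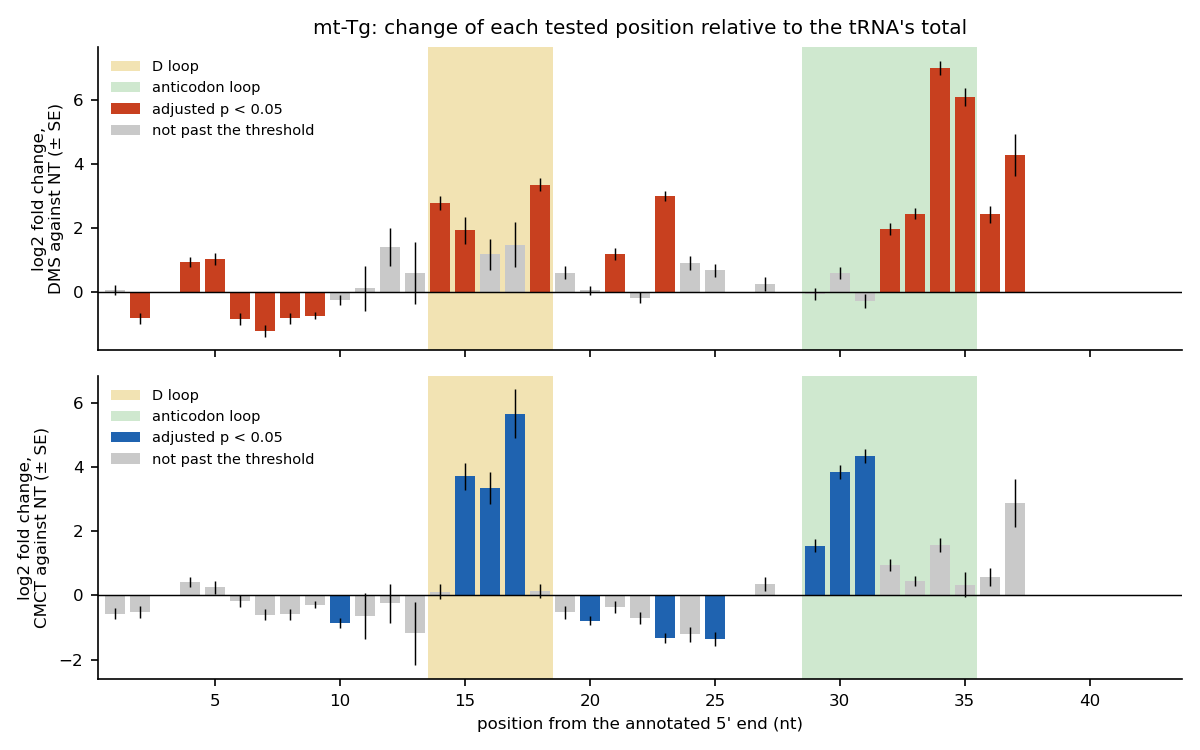
Log2 fold change (y axis, bars, ± SE) of the share of stops at each tested position of mt-Tg (x axis, nt from the annotated 5′ end), DMS above and CMCT below, coloured where the edgeR adjusted p is under 0.05 and grey otherwise. DMS bars are tallest at 34 and 35, on the 3′ side of the anticodon loop, and CMCT bars at 17, 30 and 31.

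Other loops showed parts of this pattern. In mt-Tw the T at position 18 of the D loop had 149 and 145 stops in NT, 59 and 38 in DMS, and 1548 and 1521 in CMCT, with a log2 fold change in CMCT of 2.96 (SE 0.25, edgeR adjusted p = 0.0085). It made this base the most stopped of mt-Tw in CMCT. In its anticodon loop the T at 31 rose with CMCT from 3 and 7 to 35 and 35 (2.35), the T at 32 from 4 and 1 to 24 and 24 (2.77), and the A at 35 rose with DMS from 100 and 91 to 115 and 254 (1.95, adjusted p = 0.041). The T at 32 also passed in DMS, where it had 8 and 7 stops. The first base of mt-Tw, an A, rose with DMS from 22 and 22 to 52 and 65 (2.41, adjusted p = 0.0086). The total of mt-Tw fell in DMS, so that a position with an equal count gains in share. Scaled to library size, none of its 6 DMS rises passed, and the values at 1, 32 and 35 were 0.88, 1.07 and 0.44, whereas its 4 CMCT rises all passed. With NT replicate 1 or 2 left out, the T at 32 was 3.75 and 1.86 in DMS and 4.00 and 2.11 in CMCT, and the T at 31 1.88 and 3.05 in CMCT, none of which passed.

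In mt-Td only 7 positions were deep enough, and the A at 15 in the D loop rose with CMCT from 3 and 4 to 31 and 31 (2.18, adjusted p = 0.026). Leaving out 1 library gave 2.01 to 2.32 for this base, and the call was lost whichever was left out. In mt-Tk the A at 13, in a D loop of 3 bases, rose with DMS from 2 and 6 to 37 and 49 (3.12, adjusted p = 0.035) and had 5 and 2 stops in CMCT. Leaving out DMS replicate 2 gave 2.57 and leaving out NT replicate 2 gave 4.01, and the base passed in no fit with 1 library left out. Apart from these, no base of mt-Td or mt-Tk was called higher with either reagent.

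Calls in the histidine tRNA mt-Th, like the DMS calls of mt-Tw and mt-Tg, were not confined to loops. Of its 24 tested positions 11 rose with DMS, 7 of them in stems, and none rose with CMCT. Leading were its first base, a T of the acceptor stem, from 2 and 1 to 14 and 34 (4.80, adjusted p = 0.011), the G after it, from 6 and 6 to 28 and 48 (3.55), and the T at 11 in the D stem, from 11 and 6 to 33 and 60 (3.34). Its total fell in DMS too, and scaled to library size 5 of these 11 rises passed, the base at 2 (2.13) did not, and 3, at positions 4, 10 and 20, had a value below 0. One of its stops behaved in the opposite way: the G at position 26, in the anticodon stem, had 603 and 603 stops in NT, 80 and 79 in DMS and 578 and 579 in CMCT, and its share fell in DMS by 1.97 (adjusted p = 0.0090) and in CMCT by 1.29 (adjusted p = 0.027) on the log2 scale. Scaled to library size the fall in CMCT (−0.34) did not pass.

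The positions of mt-Tr, mt-Ts2, mt-Tl2 and mt-Tt gave no rise that passed with either reagent. Of 6, 2, 13 and 12 tested positions, 1 in mt-Tr and 3 in mt-Tt fell with DMS. With CMCT the A at 16 of mt-Tr, in the D loop, was the only loop base of the 9 tRNAs called lower, with 9 and 8 stops in NT, 19 and 15 in DMS and 5 and 5 in CMCT (−1.80, adjusted p = 0.029), and scaled to library size it did not pass. Replicates were far apart at some of these bases. The T at 16 of mt-Tl2 had 255 stops in DMS replicate 1 and 17 in DMS replicate 2, beside 194 and 52 in NT and 409 and 293 in CMCT. The Pearson correlation of the DMS replicates along the tRNA was 0.53 over the 46 bases of mt-Tl2 and 0.67 over the 42 of mt-Tt, beside 0.99 over the 43 of mt-Tg, and it was lowest, 0.30, in mt-Td. By rank (Spearman) the correlation was 0.90 in mt-Tl2, 0.91 in mt-Tt, 0.96 in mt-Tg and 0.66 in mt-Td.

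**Figure D5:**
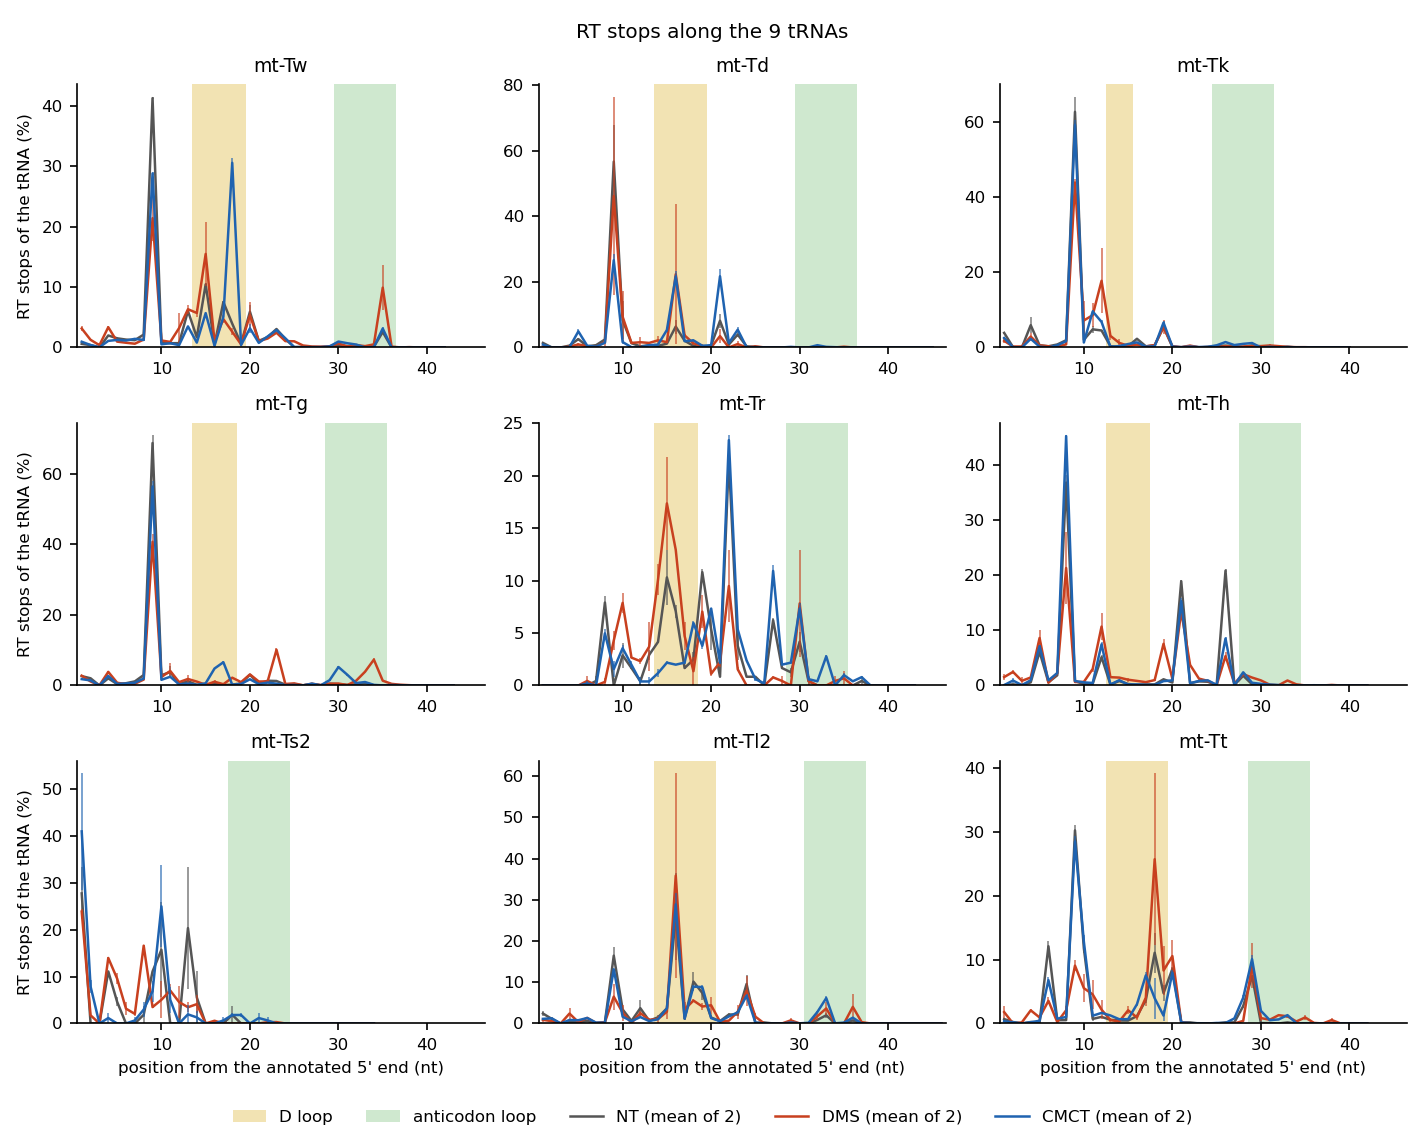
RT stops along the measured part of each tRNA (x axis, nt from the annotated 5′ end) as a percentage of the tRNA's stops (y axis), with lines for the mean of 2 replicates, vertical bars from the lower to the higher replicate, and shading for the D loop and the anticodon loop. The peak at position 9 stands out in mt-Tw, mt-Td, mt-Tk, mt-Tg, mt-Th (its base 8) and mt-Tt, and the CMCT peak at 18 in mt-Tw.

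The arginine tRNA mt-Tr lacked stops at its 5′ end. Its first 7 bases had 3 stops in all 6 libraries together, 0.297% of its 1009, whereas the same 7 bases held 5.26% to 51.6% of the stops of the other 8 tRNAs. Bases 14 to 21 of mt-Tr are a run of A that begins in the D loop, and they held 389 stops, 38.6% of the total. This share was not particular to mt-Tr, since the same bases held 5.51% (mt-Ts2) to 55.9% (mt-Tl2) in the other 8 tRNAs. RNA-seq showed a gap at the run of A: no alignment covered bases 13 to 22 of mt-Tr whole. In the other tRNAs 11 to 52 alignments covered the same bases, except in mt-Td, which had none. RT stops were counted within the run and 5′ of it, with 10 and 9 in NT at base 8. Counting the first base as 1, no alignment started from position −19 to 13, against 498 from −60 to −20 and 29 from 14 to 54. The causes of the RNA-seq gap and of the lack of stops at the 5′ end were not tested. Nor was it tested whether this run has the same length in E14 cells as in mm9. The stops of mt-Tr 5′ of the run, and with them its total, are given with this limit.

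A reactivity was also computed in the manner of the study, as the log2 ratio of treated to NT stops, each scaled to its mean over the tRNA, with negative values set to 0, Winsorised at the 90th percentile and the larger of both reagents taken. By this measure 120 of the 377 measured bases were highly reactive, above 0.7. They made up 40 of 63 bases of the anticodon loops (63.5%), 22 of 44 of the D loops (50.0%), 48 of 204 paired stem bases (23.5%) and 10 of 66 other unpaired bases (15.2%). The other unpaired bases include the variable loops, which all scored 0. Those of mt-Tw, mt-Td, mt-Tg, mt-Tr, mt-Th and mt-Ts2 had no stop in any library, so this score does not show them unreactive. Among bases with at least 60 stops, 16 of 72 paired bases (22.2%) and 3 of 17 other unpaired bases (17.6%) were highly reactive. The order of the loops was not stable: with a pseudocount of 5 in place of 1 the shares were 52.4% in the anticodon loops and 65.9% in the D loops, and without replicate 2 they were 47.6% and 61.4%. Winsorising over positions above 0 alone left 85 highly reactive bases, 29 in the anticodon loops, 18 in the D loops, 29 paired and 9 others. The loops held 51.7% of the highly reactive bases. Bases of 1 tRNA are not replicates, so this share is a description without an interval. This score gives each tRNA its own scale, and a base with few stops can reach it: of the 14 highly reactive bases of mt-Tr, 6 were paired, and of the 18 of mt-Th, 9 were. In mt-Tg 5 of the 14 lay in the D loop, 5 in the anticodon loop and 3 in paired stems.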

How the data were processed

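CIRS-seq was measured in 6 libraries (NT, DMS and CMCT, 2 replicates each) and RNA-seq in 1, all from E14 cells. The deposited CIRS-seq values are raw counts of RT stops per transcript position, placed on the modified base. The authors mapped reads to mm9 carrying E14 variants, and the submitters' processing notes name Bowtie 1.0.0, bedtools 2.17.0, FastQC 0.10.1 and TopHat2 2.0.6. Mapping parameters are not given in the sources used here. RNA-seq was deposited as single alignments to mm9. Tables of both replicates together were not used.

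Gene counts were fitted over the 6 libraries with edgeR 4.0.16 in R 4.3.3 (TMM, filterByExpr, quasi-likelihood test), and positions with at least 60 stops, in 1 transcript per gene, with the log of the transcript total as offset. Calls had a Benjamini-Hochberg adjusted p under 0.05 over all 13216 genes or 622562 positions. Deviations of same-numbered libraries correlated at 0.55 for DMS with NT, whereas CMCT gave 0.01 with NT and −0.11 with DMS. The main fits left the replicate number out, so an effect shared by same-numbered NT and DMS libraries was not removed from them. In simulated DMS libraries with 200 changed genes, 90 of 100 changes of 4-fold and 20 of 100 of 2-fold were called among 13214 genes, with 2 false calls. With 200 changed positions among 622562, 5 of 100 changes of 4-fold and 0 of 100 of 2-fold were called, with no false call. The median log2 estimate of a 4-fold rise was 2.08 and 2.09. In these simulations far fewer genes and positions changed than were called in the data, and replicates were drawn independently. Recovery under the adjustment depends on the share changed, so the simulations do not give the recovery or error rate of the tests above. Each cloverleaf was the best-pairing fit to a tRNA plan with fixed lengths of the acceptor stem, anticodon stem and anticodon loop. A T before the anticodon and certain linker lengths were preferred. For mt-Th the base before the annotated start was added. The loop and stem labels rest on this plan. All 9 tRNAs are described, and by rule the most stopped base in NT and up to 3 bases per reagent with the largest called rise. The members and lists were chosen with earlier results of these data known. Totals per library set the counting precision, and intervals cover counting error only. DESeq2 1.42.0, other scalings, filters, offsets, a replicate block and leaving out each library were tried.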

Additional observations from a re-analysis of the deposited data

How the results depend on the processing

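The number of genes called in DMS against NT was 3485, and 5593 with DESeq2, 5616 with a replicate block and 1719 to 4619 when 1 library was left out. In CMCT against NT it was 3827, and 1600 to 4402 when 1 library was left out, and in CMCT against DMS it was 1223, and 2673 with DESeq2, 657 with RLE scaling, 2420 with the block, 728 without each gene's most counted position, 1898 with the likelihood ratio test and 428 to 1720 when 1 library was left out. The positions called in DMS numbered 135973, and 60137 at a minimum of 200 counts and 0 to 103227 with 1 library left out. Those called in CMCT numbered 59903, and 35261 at that minimum, 90197 with TMM library sizes as offset, 104499 with the capped transcript total, 99097 with the likelihood ratio test and 5142 to 23942 with 1 library left out. Under the replicate block mt-Tg (0.74) and mt-Tl2 (−1.10) passed in DMS, mt-Th (0.73) and mt-Tl2 (1.06) in CMCT against NT, and mt-Tr (0.89) in CMCT against DMS. The member positions called under the block were 30 rises and 11 falls in DMS and 8 and 1 in CMCT.

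With RLE scaling the median log2 fold change of all genes in CMCT against NT moved from 0.11 to 0.0087 and that of the 9 tRNAs from 0.50 to 0.37. Of the 31 DMS rises and 13 falls of member positions, 27 and 13 kept their sign with TMM library sizes as offset and 28 and 13 with the capped total, and the calls became 26 rises and 38 falls, and 19 and 35. In CMCT all 11 rises and 6 falls kept their sign, and the calls became 30 and 0, and 14 and 14. The calls that turned were the rises of mt-Th at 4, 10 and 20, with both, and of mt-Tw at 4, with TMM sizes (−0.78). For the other tRNAs and bases named in the report, signs turned only in values that had not passed. In CMCT mt-Tt (0.03) was −0.093 with DESeq2 and with RLE scaling and −0.24 to 0.37 with 1 library left out, mt-Tw (−0.06) was 0.21 without its most counted position and −0.41 to 0.23, and mt-Td −0.064 to 1.04. In DMS mt-Tk (−0.12) was 0.45 without that position and −0.41 to 0.18. At position 9, mt-Td in DMS was 0.16 with the capped total and −1.83 to 0.43 with 1 library left out. In CMCT mt-Tk was 0.60 with TMM sizes, 0.15 with the capped total and −0.17 to 0.012, mt-Tg 0.37 and mt-Tt 0.16 with TMM sizes, and mt-Th −0.019 with the capped total. The first base of mt-Ts2 was 2.23 in DMS with TMM sizes and −0.48 to 0.10 with 1 library left out, and −0.39 in CMCT with the capped total. The T at 16 of mt-Tl2 was −0.31 in DMS with TMM sizes and −1.25 to 1.25, and −0.34 to 0.91 in CMCT. The cause was not tested.

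The loops held 51.7% of highly reactive bases and 60.4% among bases with at least 60 counts, a choice made after seeing the data, as were the likelihood ratio test and a scaling with the unmeasured bases. RNA-seq gave 475 reads by midpoint and 747 by any overlap. Depth limits the tests to 138 of 377 bases, 2 of them in mt-Ts2.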
